A study of Mus musculus with 180 samples.

Results

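The macrophage identity genes described here are 9 genes, *Csf1r*, *Spi1*, *Cebpa*, *Cebpb*, *Adgre1*, *Maf*, *Mertk*, *Itgam* and *Lyz2*, taken by their symbols from the 45070 genes of the table. Polyadenylated RNA was sequenced from mouse bone marrow-derived macrophages (BMDMs) after 1 h of pre-treatment with a clinical kinase inhibitor (CKI) or its vehicle DMSO and 2 h of stimulation with lipopolysaccharide (LPS) at 10 ng/ml. The cells were wild type in every group and came from male C57/BL6 mice, and each CKI was added at the EC50 for its intended target in a binding assay. For some CKIs the intended target differed from the designated targets by which CKIs are grouped below. There were 58 CKIs with 3 samples each and 6 DMSO samples in 2 sets of 3, giving 59 groups and 180 samples. All groups received LPS, so each comparison asks whether a CKI changed the level of a gene in LPS-stimulated cells, and unstimulated cells were not analysed here.

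Macrophages are kept alive and in their lineage by colony-stimulating factor 1, which acts through the receptor kinase encoded by *Csf1r*. The transcription factors PU.1 (*Spi1*), C/EBPα (*Cebpa*), C/EBPβ (*Cebpb*) and c-MAF (*Maf*) set up and hold the myeloid expression program, while F4/80 (*Adgre1*), the integrin αM chain CD11b (*Itgam*), the TAM receptor kinase MERTK, which takes up dying cells, and lysozyme (*Lyz2*) are products by which macrophages are recognized. MERTK binds its ligands GAS6 and PROS1 and belongs to one receptor family with AXL and TYRO3.

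The normalized values, which the authors scaled and rounded, summed to between 9477340 and 12273349 over the CKI samples and between 9481416 and 11094387 over the DMSO samples. All 9 genes had a mean normalized value of at least 10 and were among the 12714 genes tested. Per kilobase of transcript the mean DMSO level was highest for *Lyz2* at 64809, followed by *Csf1r* at 6449, *Adgre1* at 2282, *Spi1* at 1649 and *Itgam* at 806. *Maf* at 89.8, *Mertk* at 39, *Cebpb* at 16.8 and *Cebpa* at 5.70 per kilobase were far lower. *Lyz2*, *Csf1r* and *Adgre1* were thus abundant in the cells labelled as BMDMs, whereas both C/EBP genes lay close to the minimum mean.

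Markers of other cell types were low beside those of macrophages. Summed over a list, the normalized values ranged from 0 to 10 per sample for 7 T and NK cell markers, from 1 to 46 for 5 B cell markers, from 0 to 6 for 6 erythroid markers and from 2 to 55 for 5 mast cell markers. The sums were 54 to 298 for 7 dendritic cell markers, led by *Xcr1*, 83 to 545 for 10 stromal and endothelial markers, led by *Kdr*, 56 to 288 for 6 osteoclast markers, led by *Acp5*, and 404 to 2708 for 10 neutrophil markers, led by *S100a8*. By contrast 30 macrophage surface and lysosome markers, led by *Ctsb*, summed to between 377727 and 627157. The mean was under 1 for 5 of the T and NK cell, 4 of the B cell, all 6 erythroid and 4 of the mast cell markers. Among the macrophage markers *Timd4* was listed at 0 in 148 of 180 samples and *Marco* in 76.

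Across the 522 combinations of a gene and a CKI, limma with Benjamini-Hochberg adjustment over all tested genes called 4 higher and 6 lower than DMSO. Over all tested genes and CKIs, 2.52% of combinations were called higher and 1.65% lower, and these few calls are no sign that the 9 genes stand apart. The calls concerned *Csf1r*, *Spi1* and *Mertk* and came from 5 CKIs, AZD2014, BGT226, Omipalisib, Afatinib and Tofacitinib. After the samples were scaled again by the median of ratios the split was 3 higher and 10 lower, or 23.1% higher in place of 40%. The share of all tested genes called under that scaling is not given here, so this split is not read as a result about the 9 genes. The same holds for the rescaled counts of the gene lists below. In the F test among the 59 groups 4 of the 9 genes passed, *Csf1r*, *Spi1*, *Cebpb* and *Mertk*, beside 48.6% of all tested genes. That share is near the background and is not a result about these genes.

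Of the 5 CKIs, AZD2014 had 1 of the 9 genes called higher and 1 lower, against 6.06% and 13.5% of all tested genes. BGT226 had 2 called higher and 1 lower, against 24.1% and 6.32%. Omipalisib had 1 higher and 1 lower, against 17.5% and 8.16%. Afatinib had 0 called higher by limma (0 at an unadjusted p under 0.05) and 2 lower, against 9.06% and 12.8%. Tofacitinib had 0 called higher by limma (1 at an unadjusted p under 0.05) and 1 lower, against 9.02% and 0.857%. The median Log2FC of the 9 genes was 0.20 with AZD2014, beside -0.017 over all tested genes, 0.41 with BGT226, beside 0.21, 0.39 with Omipalisib, beside 0.12, -0.16 with Afatinib, beside 0.034, and 0.41 with Tofacitinib, beside 0.17. These comparisons share the 6 DMSO samples.

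**Figure D1:**
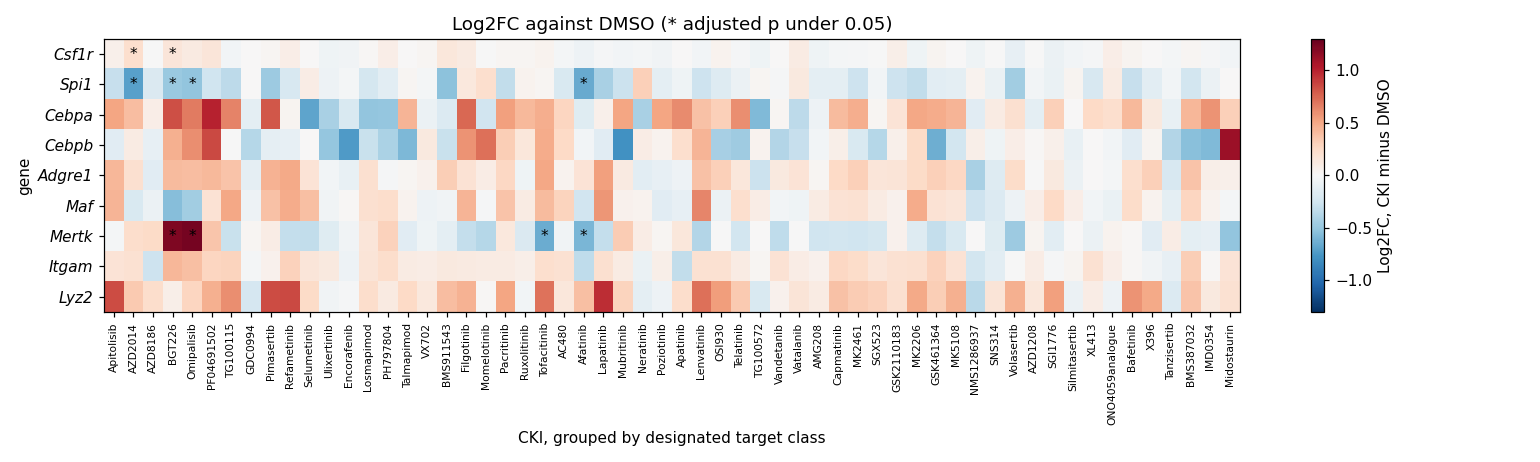
Log2FC of the 9 genes against DMSO for each of 58 CKIs, grouped by designated target class, with red for higher and blue for lower and an asterisk where the adjusted p was under 0.05. The 10 calls lie in the rows of *Csf1r*, *Spi1* and *Mertk*.

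Among the receptors, *Csf1r* (chr18:61105572-61131139, plus strand, mm10) hardly varied. Its normalized value in the 6 DMSO samples was 24416 at the lowest, 25088 at the median and 25418 at the highest. With AZD2014 it was 29139, 29924 and 27908 in the 3 samples (Log2FC 0.21, SE 0.056, adjusted p = 0.00231, limma), and with BGT226 it was 27727, 27470 and 28437 (Log2FC 0.16, SE 0.056, adjusted p = 0.0223). All 3 samples of either CKI lay above all 6 DMSO samples. In all, 12 of 58 CKIs had all their samples above DMSO and 2 below, and of these only AZD2014 and BGT226 were called. The 6 DMSO samples lay close together, with an SD of 0.022 on the log2 scale beside a spread of 0.068 within groups. The share of all tested genes with such separation is not given, so this count is not read as a result about *Csf1r*. The rise with BGT226 depended on the scaling: after the samples were scaled again by the median of ratios its Log2FC was -0.037 (adjusted p = 0.777), and that scaling shifted the median Log2FC of all genes by -0.19 with BGT226. It was also not called without replicate 1, 2 or 3, with adjusted p of 0.0693, 0.0929 and 0.228. The call was lost as well without the filter on low values (0.078), against DMSO set 1 or set 2 alone (0.0577 and 0.0739) and with the adjustment made jointly over all CKIs (0.109), and over 18 settings its adjusted p ranged from 0.00747 to 0.777. The rise with AZD2014 was not called without replicate 2 (Log2FC 0.19, adjusted p = 0.0992, range over 18 settings 4.43e-04 to 0.0992). Neither rise reached a Log2FC of 0.5, so both were lost where that size was required. With OSI930, whose designated targets include CSF1R itself, *Csf1r* was 25425, 25684 and 26139, just above the DMSO samples but not called (Log2FC 0.043, SE 0.056, adjusted p = 0.704). The 95% interval of its Log2FC ran from -0.068 to 0.15. After scaling again by the median of ratios its Log2FC was -0.023. That scaling shifted the median Log2FC of all genes by -0.065 with OSI930, so the change of sign is no result about *Csf1r* itself. *Csf1r* overlaps a predicted gene on the opposite strand and a microRNA gene, so its value may hold reads of these.

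Over the 59 groups the mean of log2(normalized value + 1) of *Csf1r* spanned 0.32, from Volasertib to AZD2014, and this range ranked 115 from the smallest of 12714 tested genes. Its spread between samples of one group, 0.068 on the log2 scale, ranked 5 from the smallest of 12714, beside a median of 0.31 over all tested genes. The deposited scaling rests on genes with steady values, and whether *Csf1r* was one of them was not tested, so a steady transcript and a level held steady by the scaling cannot be told apart. After scaling again by the median of ratios that spread was 0.11 and ranked 70 from the smallest. No 2 neighbours in the order of the 59 *Csf1r* means lay further apart than this spread. Steps between so many sorted means are mostly small, so this says nothing about the calls. In the order of the means DMSO stood 31 from the lowest.

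With the 7 PI3K/mTOR inhibitors the mean level of *Csf1r*, in rising order, was 24319.7 ± 925 for TG100115, 24835 ± 1112 for AZD8186, 26172 ± 1940.5 for Apitolisib, 27016 ± 964 for Omipalisib, 27827 ± 1084 for PF04691502, 27878 ± 501 for BGT226 and 28990.3 ± 1016 for AZD2014. With the 5 MEK/ERK inhibitors the mean level of *Csf1r*, in rising order, was 24016 ± 200 for Ulixertinib, 25071 ± 494 for GDC0994, 25115 ± 2355 for Selumetinib, 25523 ± 2500.4 for Pimasertib and 26519.7 ± 633 for Refametinib. With the 4 p38 inhibitors the mean level of *Csf1r*, in rising order, was 25186 ± 1768 for Talmapimod, 25288 ± 1493 for Losmapimod, 25525 ± 441 for VX702 and 26600 ± 1172 for PH797804. The DMSO mean was 24991 ± 384 (SD, n = 6; each CKI value is a mean ± SD of 3 samples), and among these classes AZD2014 and BGT226 were the calls. With the 6 JAK inhibitors the mean level of *Csf1r*, in rising order, was 24955 ± 547 for Momelotinib, 25485 ± 2124 for Ruxolitinib, 25529 ± 1940.5 for Pacritinib, 25727 ± 1012 for Tofacitinib, 27183 ± 1026 for Filgotinib and 27665 ± 1718 for BMS911543. With the 6 EGFR/ERBB inhibitors the mean level of *Csf1r*, in rising order, was 23961 ± 421 for Afatinib, 24204 ± 1426 for Poziotinib, 24377 ± 915 for Mubritinib, 24515 ± 1074 for Neratinib, 24520.3 ± 1716 for AC480 and 24807 ± 1482 for Lapatinib. With the 7 VEGFR inhibitors the mean level of *Csf1r*, in rising order, was 24095 ± 1944 for TG100572, 24394 ± 334 for Lenvatinib, 24694 ± 1246 for Telatinib, 25000.3 ± 1062 for Apatinib, 25123 ± 606 for Vandetanib, 25749 ± 362 for OSI930 and 26853 ± 968 for Vatalanib. *Csf1r* was not called with any of these JAK, EGFR/ERBB or VEGFR inhibitors. With the 4 MET inhibitors the mean level of *Csf1r*, in rising order, was 24111 ± 1185 for AMG208, 24633 ± 876 for Capmatinib, 24686 ± 1519 for MK2461 and 24929 ± 680.1 for SGX523. With the 2 AKT inhibitors the mean level of *Csf1r*, in rising order, was 24069 ± 749.9 for MK2206 and 26344 ± 929.7 for GSK2110183. With the 5 PLK/Aurora inhibitors the mean level of *Csf1r*, in rising order, was 23201 ± 534 for Volasertib, 23997 ± 902 for NMS1286937, 24878 ± 462 for SNS314, 25134 ± 1178 for MK5108 and 25616 ± 2094 for GSK461364. *Csf1r* was not called with any of these MET, AKT or PLK/Aurora inhibitors. With the 2 PIM inhibitors the mean level of *Csf1r*, in rising order, was 23770 ± 973 for SGI1776 and 24864 ± 812 for AZD1208. With the 10 CKIs that were alone in their target class it was 24255 ± 527 for Encorafenib, 24376 ± 634 for Silmitasertib, 24451 ± 1325 for Midostaurin, 24543 ± 1195 for Tanzisertib, 24679 ± 875 for IMD0354, 24684 ± 576 for XL413, 25173 ± 1113 for X396, 25363 ± 932 for BMS387032, 25599 ± 958 for Bafetinib and 26616 ± 1239 for ONO4059analogue.

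*Mertk* (chr2:128698915-128803007, plus strand) had the largest called changes of the 9 genes. In DMSO its normalized value was 148 at the lowest, 174 at the median and 203 at the highest of 6 samples. With BGT226, an inhibitor of PI3K and mTOR, it was 414, 392 and 403, or 2.32 times DMSO (Log2FC 1.22, SE 0.17, adjusted p = 1.12e-09, limma). With Omipalisib, which also targets PI3K and mTOR, it was 450, 331 and 463, or 2.37 times DMSO (Log2FC 1.24, SE 0.17, adjusted p = 1.06e-09). All samples of both CKIs lay well above every DMSO sample. Both rises were called in all 18 settings, with Log2FC between 1.02 and 1.28 for BGT226 and between 1.05 and 1.44 for Omipalisib. In bulk RNA, a change in the share of cells that express *Mertk* and a change in its RNA per cell cannot be told apart.

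No other CKI directed at PI3K, mTOR or AKT was called for *Mertk* at the doses used. The intended targets for which these doses were set can lie outside PI3K, mTOR and AKT, and whether the doses matched in their effect on these kinases was not tested. *Mertk* was 242, 232 and 194 with PF04691502 (Log2FC 0.36, SE 0.17, adjusted p = 0.132), 197, 187 and 233 with AZD8186, 203, 232 and 175 with AZD2014, 245, 137 and 147 with Apitolisib and 141, 175 and 114 with TG100115. With the AKT inhibitors it was 176, 193 and 169 for GSK2110183 and 167, 157 and 140 for MK2206. All 7 groups overlapped the DMSO range. The upper 95% bound of the Log2FC was 0.69 for PF04691502, 0.56 for AZD2014 and 0.31 for Apitolisib. Differences between 2 CKIs were not tested.

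*Mertk* fell with Tofacitinib, a JAK inhibitor, to 122, 114 and 95 (Log2FC -0.65, SE 0.17, adjusted p = 0.0138, limma), and with Afatinib, an EGFR and ERBB2 inhibitor, to 119, 95 and 132 (Log2FC -0.59, SE 0.17, adjusted p = 0.00592). All 3 samples of each lay below all 6 DMSO samples. The fall with Tofacitinib was not called without replicate 2 or replicate 3 or against DMSO set 1 alone, with adjusted p of 0.336, 0.0691 and 0.0791. It was also lost in a fit with both the replicate number as a block and the mitochondrial share, described below. The fall with Afatinib was not called without replicate 1 or replicate 2 or against DMSO set 1 alone, with adjusted p of 0.0554, 0.374 and 0.0691. Over 18 settings the adjusted p ranged from 0.00532 to 0.336 for Tofacitinib and from 0.0017 to 0.374 for Afatinib, and Log2FC ranged from -0.81 to -0.54 for Tofacitinib and from -0.80 to -0.41 for Afatinib. The other 5 JAK inhibitors were not called, *Mertk* being 118, 157 and 127 with Momelotinib and 135, 167 and 119 with Filgotinib. The samples of Lapatinib, Midostaurin, Selumetinib and Volasertib also lay below, and those of Mubritinib above, all DMSO samples without a call.

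**Figure D2:**
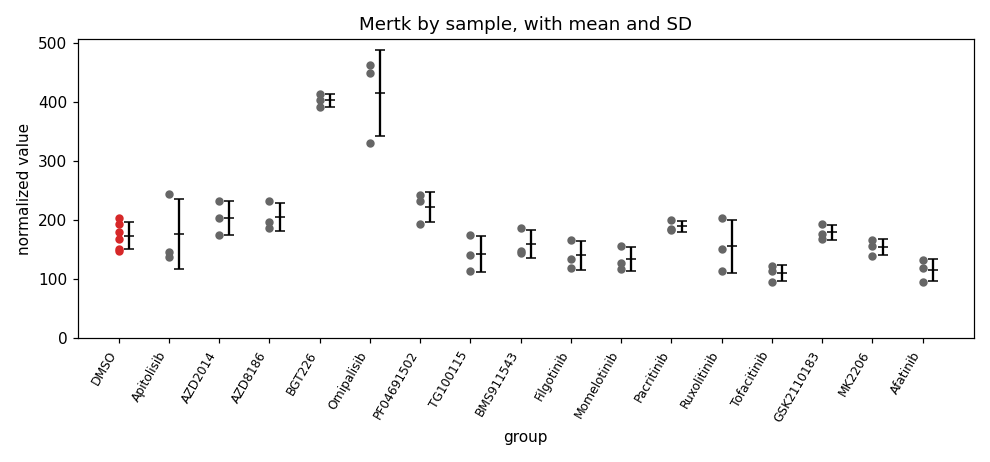
Normalized value of *Mertk* in each sample (points; DMSO in red) with mean and SD (bars) for DMSO, the PI3K/mTOR, JAK and AKT inhibitors and Afatinib. The 3 samples of BGT226 and of Omipalisib stand above all others shown.

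With the 5 MEK/ERK inhibitors the mean level of *Mertk*, in rising order, was 138 ± 5.69 for Selumetinib, 140.3 ± 16.5 for Refametinib, 157 ± 33.0 for Ulixertinib, 176 ± 14.2 for GDC0994 and 186 ± 26.3 for Pimasertib. With the 4 p38 inhibitors the mean level of *Mertk*, in rising order, was 157 ± 22.1 for Talmapimod, 167 ± 25.1 for VX702, 193 ± 9.29 for Losmapimod and 214 ± 26.9 for PH797804. With the 6 JAK inhibitors the mean level of *Mertk*, in rising order, was 110.3 ± 13.9 for Tofacitinib, 134 ± 20.4 for Momelotinib, 140.3 ± 24.4 for Filgotinib, 156 ± 44.7 for Ruxolitinib, 159.7 ± 23.8 for BMS911543 and 189.7 ± 9.07 for Pacritinib. These *Mertk* levels compare with 174 ± 22.4 in DMSO (SD, n = 6; n = 3 for each CKI), and Tofacitinib gave the lowest mean of all 59 groups. With the 6 EGFR/ERBB inhibitors the mean level of *Mertk*, in rising order, was 115 ± 18.8 for Afatinib, 139.7 ± 5.13 for Lapatinib, 170.3 ± 39.3 for AC480, 176 ± 21.9 for Poziotinib, 187 ± 35.1 for Neratinib and 218 ± 13.3 for Mubritinib. With the 7 VEGFR inhibitors the mean level of *Mertk*, in rising order, was 134 ± 26.1 for Lenvatinib, 138 ± 17.8 for Vandetanib, 147 ± 11.6 for Telatinib, 173 ± 17.1 for Vatalanib, 173 ± 27.7 for OSI930, 175 ± 24.2 for TG100572 and 192 ± 6 for Apatinib. With the 4 MET inhibitors the mean level of *Mertk*, in rising order, was 144 ± 7 for AMG208, 148 ± 6.03 for SGX523, 148 ± 26.0 for Capmatinib and 150.3 ± 55.1 for MK2461. Afatinib, called lower, was the lowest of the EGFR/ERBB inhibitors, and none of the VEGFR or MET inhibitors was called. With the 2 AKT inhibitors the mean level of *Mertk*, in rising order, was 155 ± 13.7 for MK2206 and 179 ± 12.3 for GSK2110183. With the 5 PLK/Aurora inhibitors the mean level of *Mertk*, in rising order, was 126 ± 21.9 for Volasertib, 141 ± 24.6 for GSK461364, 151 ± 2 for MK5108, 158 ± 35.1 for SNS314 and 178 ± 51.8 for NMS1286937. With the 2 PIM inhibitors the mean level of *Mertk*, in rising order, was 159 ± 32.7 for SGI1776 and 180.3 ± 36.9 for AZD1208. With the 10 CKIs that were alone in their target class it was 122 ± 19.5 for Midostaurin, 156 ± 14 for X396, 159.7 ± 25.8 for BMS387032, 166 ± 32.9 for XL413, 167 ± 56.3 for IMD0354, 168 ± 17 for Encorafenib, 175 ± 14.6 for Bafetinib, 176 ± 35.6 for Silmitasertib, 179 ± 19.6 for ONO4059analogue and 186 ± 22.2 for Tanzisertib. In the order of the 59 means only 1 step was wider than the spread between samples of one group (0.24 on the log2 scale), that between PF04691502 and BGT226, and DMSO stood 37 from the lowest.

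No other TAM gene was called higher with any CKI. *Gas6*, which encodes a MERTK ligand, was 5366 ± 2357 in DMSO, 985 ± 271 with AZD2014 (Log2FC -2.36, SE 0.26, adjusted p = 1.65e-12) and 1649 ± 237 with Afatinib (Log2FC -1.59, SE 0.26, adjusted p = 2.07e-06). With BGT226 it was 5324 ± 252 and with Omipalisib 3458 ± 514, neither called. In AZD2014 and in Afatinib all 3 samples of *Gas6* lay below all DMSO samples. *Pros1*, the other ligand, fell from 656 ± 87.0 to 392 ± 15.9 with BGT226 (Log2FC -0.73, SE 0.15, adjusted p = 4.39e-05) and to 417 ± 63.5 with Omipalisib (Log2FC -0.66, SE 0.15, adjusted p = 4.16e-04). All 3 samples of both CKIs lay below DMSO. *Pros1* was called lower with 8 CKIs in all, among them AZD2014 (Log2FC -0.54, SE 0.15, adjusted p = 0.00538), where *Mertk* was not called, and Tofacitinib (Log2FC -0.50, SE 0.15, adjusted p = 0.0307), where *Mertk* fell, each with 3 of 3 samples below DMSO. *Axl* was called lower with AZD2014 alone (Log2FC -0.59, SE 0.22, adjusted p = 0.0464; 2 of 3 samples below all DMSO samples), which was lost after the samples were scaled again (adjusted p = 0.0603), and *Tyro3*, with a mean of 1.84, was not tested. Of the 3 tested TAM genes 2 passed the F test, beside 48.6% of all tested genes, and in 174 combinations with a CKI limma called 0 higher (0 at an unadjusted p under 0.05) and 13 lower, beside 2.52% and 1.65% of all combinations.

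Among the other receptors and ligands of the CSF family, 5 of 8 genes were tested and 4 passed the F test, with 8 combinations called higher and 11 lower of 290, against the same background of 2.52% and 1.65% and of 48.6% in the F test. *Csf2rb2*, which encodes a β chain of the IL-3 receptor, was 2540.5 ± 433 in DMSO and rose to 5606 ± 531 with BGT226 (Log2FC 1.16, SE 0.10, adjusted p = 3.63e-19) and 4746 ± 324 with Omipalisib (Log2FC 0.92, SE 0.10, adjusted p = 1.84e-13). All 3 samples of each lay above DMSO. It has a close paralog in *Csf2rb*, and reads from the pair may have been split. *Csf1*, the ligand of the *Csf1r* product, fell from 1240.5 ± 478 to 447 ± 41.0 with AZD2014 (Log2FC -1.40, SE 0.26, adjusted p = 6.02e-06), the CKI with the highest *Csf1r*, in 3 of 3 samples below all DMSO samples. *Csf3r*, at 183 ± 66.2 in DMSO, did not pass (F test adjusted p = 0.838).

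Of the transcription factors, *Spi1* (chr2:91082405-91115759, plus strand) was lower with 4 CKIs. In DMSO it was 2042 at the lowest, 2568 at the median and 3540 at the highest. It was 1346, 1520 and 1985 with AZD2014 (Log2FC -0.71, SE 0.19, adjusted p = 0.00268, limma), 1482, 1590 and 1904 with Afatinib (Log2FC -0.66, SE 0.19, adjusted p = 0.00633) and 1586, 1885 and 2043 with Omipalisib (Log2FC -0.51, SE 0.19, adjusted p = 0.0324). The samples of AZD2014 and Afatinib lay below all DMSO samples, whereas the highest Omipalisib sample reached just past the lowest DMSO sample. The remaining call, named after its values were seen, was BGT226 at 1528, 1824 and 2342 (Log2FC -0.48, SE 0.19, adjusted p = 0.0407). In each of these 4 groups the sample numbered 1 was the lowest. Without replicate 2 none of the 3 leading falls was called, with adjusted p of 0.163 for AZD2014, 0.328 for Afatinib and 0.282 for Omipalisib, and the adjusted p over 18 settings ranged from 2.56e-05 to 0.163, from 6.16e-04 to 0.328 and from 0.00876 to 0.282. Log2FC stayed between -0.90 and -0.54 for AZD2014 and between -0.80 and -0.50 for Afatinib over all 18 settings. The fall with Omipalisib was also not called without replicate 1 or 3 (adjusted p = 0.0699 and 0.0552) or against DMSO set 1 or set 2 alone (0.0644 and 0.109). It was also lost without the filter on low values (0.065) and with the adjustment made jointly over all CKIs (0.126). The fall with BGT226 was not called without replicate 1 or 2 (adjusted p = 0.137 and 0.357), without the filter (0.0747), against DMSO set 1 or set 2 alone (0.0726 and 0.126) or with the joint adjustment (0.16), with a range of 0.00391 to 0.357, and it was also smaller than a Log2FC of 0.5 in size. All 3 samples of Pimasertib also lay below DMSO, without a call.

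With the 7 PI3K/mTOR inhibitors the mean level of *Spi1*, in rising order, was 1617 ± 330.4 for AZD2014, 1838 ± 232 for Omipalisib, 1898 ± 412 for BGT226, 2081 ± 397 for TG100115, 2113 ± 131 for Apitolisib, 2195 ± 348 for PF04691502 and 2302 ± 333 for AZD8186. With the 5 MEK/ERK inhibitors the mean level of *Spi1*, in rising order, was 1886 ± 149 for Pimasertib, 2273 ± 274 for Refametinib, 2496 ± 329.8 for Ulixertinib, 2624 ± 328 for GDC0994 and 2854 ± 722 for Selumetinib. With the 4 p38 inhibitors the mean level of *Spi1*, in rising order, was 2271 ± 612 for Losmapimod, 2392 ± 375 for PH797804, 2640.3 ± 824 for VX702 and 2685 ± 465 for Talmapimod. The *Spi1* mean in DMSO was 2646 ± 512 (SD, n = 6; n = 3 for each CKI), so most of these groups overlapped it. With the 6 JAK inhibitors the mean level of *Spi1*, in rising order, was 1878 ± 623 for BMS911543, 2170 ± 752 for Pacritinib, 2657 ± 275 for Tofacitinib, 2720.3 ± 489 for Ruxolitinib, 2900 ± 566 for Filgotinib and 3026 ± 132 for Momelotinib. With the 6 EGFR/ERBB inhibitors the mean level of *Spi1*, in rising order, was 1659 ± 219 for Afatinib, 1946 ± 154 for Lapatinib, 2156 ± 136 for Mubritinib, 2304 ± 473 for AC480, 2405 ± 413 for Poziotinib and 3437 ± 1448 for Neratinib. With the 7 VEGFR inhibitors the mean level of *Spi1*, in rising order, was 2169 ± 19.5 for Lenvatinib, 2321 ± 211 for OSI930, 2470 ± 168 for Telatinib, 2530.3 ± 424 for Apatinib, 2614 ± 495 for Vandetanib, 2655 ± 267 for TG100572 and 2863 ± 264 for Vatalanib. Neratinib gave the highest *Spi1* mean of all groups and AZD2014 the lowest. With the 4 MET inhibitors the mean level of *Spi1*, in rising order, was 2177 ± 368 for MK2461, 2391 ± 163 for AMG208, 2407 ± 429.7 for Capmatinib and 2557 ± 325 for SGX523. With the 2 AKT inhibitors the mean level of *Spi1*, in rising order, was 2112 ± 409.5 for MK2206 and 2226 ± 584 for GSK2110183. With the 5 PLK/Aurora inhibitors the mean level of *Spi1*, in rising order, was 1918 ± 230.1 for Volasertib, 2396 ± 456 for GSK461364, 2431 ± 555 for MK5108, 2464 ± 272 for SNS314 and 2698 ± 149.8 for NMS1286937. *Spi1* was not called with any of these MET, AKT or PLK/Aurora inhibitors. With the 2 PIM inhibitors the mean level of *Spi1*, in rising order, was 2467 ± 388 for SGI1776 and 2583 ± 528 for AZD1208. With the 10 CKIs that were alone in their target class it was 2185 ± 619 for Bafetinib, 2227 ± 306 for BMS387032, 2322 ± 685 for XL413, 2412 ± 579 for X396, 2496 ± 434 for IMD0354, 2561 ± 15.1 for Encorafenib, 2566 ± 336 for Tanzisertib, 2618 ± 263 for Midostaurin, 2728 ± 698 for Silmitasertib and 2824 ± 458 for ONO4059analogue. No neighbouring means of *Spi1* lay further apart than the spread between samples of one group, 0.27 on the log2 scale.

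*Cebpa* (chr7:35119293-35121928, plus strand) and *Cebpb* (chr2:167688915-167690432, plus strand) had the lowest levels per kilobase of the 9 genes. *Cebpa* was 10, 16 and 20 at the lowest, median and highest DMSO sample, and in the order of mean log2 values its groups ran from a mean of 11.7 with Selumetinib (16, 2 and 17) to one of 30.3 with PF04691502 (30, 26 and 35; Log2FC 1.00, SE 0.38, adjusted p = 0.0668). *Cebpb* was 20, 23.5 and 33 in DMSO and ran from 16 with Mubritinib (28, 11 and 9) to 56.7 with Midostaurin (52, 46 and 72; Log2FC 1.12, SE 0.37, adjusted p = 0.0601). All 3 samples of either highest group lay above all DMSO samples, yet limma called 0 CKIs for each gene, with 3 and 4 of 58 at an unadjusted p under 0.05. The median SE of a Log2FC was 0.38 for *Cebpa* and 0.37 for *Cebpb*. With a pseudocount of 10 *Cebpa* was called with PF04691502 (Log2FC 0.70, adjusted p = 0.0345; Log2FC 0.70 to 1.22 and adjusted p 0.0345 to 0.284 over 17 settings). *Cebpb* was called with Midostaurin under that pseudocount (Log2FC 0.90, adjusted p = 0.0224) and without replicate 1 (Log2FC 1.23, adjusted p = 0.0457; adjusted p 0.0106 to 0.633 over 17 settings). The Log2FC of the lowest groups moved too, from -1.11 without replicate 3 to 0.070 without replicate 2 for *Cebpa* with Selumetinib and from -1.19 without replicate 1 to -0.50 without replicate 3 for *Cebpb* with Mubritinib, with no call. The samples of BGT226, Pimasertib and TG100115 for *Cebpa*, and of Momelotinib and Omipalisib for *Cebpb*, also lay above DMSO without a call. *Cebpb* passed the F test (adjusted p = 0.0298) and *Cebpa* missed it (adjusted p = 0.0549).

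*Maf* (chr8:115703253-115706894, minus strand) was 210 at the lowest, 294 at the median and 480 at the highest DMSO sample. Its group means ran from 226 with BGT226 (305, 250 and 122; Log2FC -0.55, SE 0.29, adjusted p = 0.143) to 489 with Lenvatinib (632, 454 and 381; Log2FC 0.63, SE 0.29, adjusted p = 0.116). Both groups overlapped DMSO, 0 CKIs were called by limma and 2 had an unadjusted p under 0.05. After the samples were scaled again by the median of ratios *Maf* was called lower with BGT226 (Log2FC -0.74, adjusted p = 0.0381), while without replicate 3 the difference was smaller (Log2FC -0.36, adjusted p = 0.487; Log2FC -0.78 to -0.36 and adjusted p 0.00101 to 0.487 over 18 settings). With the mitochondrial share of each sample added to the fit as a covariate, a setting chosen after the values were seen, the Log2FC of *Maf* with Lenvatinib was 0.11 (adjusted p = 0.83; Log2FC 0.11 to 0.74 and adjusted p 0.0161 to 0.83 over 18 settings). Of the 18 lineage factors listed beside the 9 genes, 16 were tested and 15 passed the F test, beside 48.6% of all tested genes, with 37 of 928 combinations called higher and 44 lower, beside 2.52% and 1.65% over all tested genes. Most of the lower calls came from a pair of genes chosen here after their values were seen, *Irf8*, which encodes an interferon regulatory factor of the monocyte lineage and was called lower with 17 CKIs, and *Tfe3*, which encodes a factor acting on lysosome genes and was called lower with 14. The widest ranges were those of *Klf4*, *Bhlhe40* and *Bhlhe41*. *Klf4* went from 10 ± 4.82 in DMSO to 56 ± 1 with Omipalisib (Log2FC 2.48, SE 0.44, adjusted p = 3.46e-06), and *Bhlhe40* from 151 ± 23.0 to 1202 ± 533 with BGT226 (Log2FC 2.91, SE 0.40, adjusted p = 1.45e-09). *Bhlhe41* went from 92.3 ± 71.7 to 656 ± 406 (Log2FC 2.92, SE 0.55, adjusted p = 5.77e-06). In each of these 3 comparisons all 3 samples lay above all DMSO samples.

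The surface genes *Adgre1* (chr17:57358686-57483529, plus strand) and *Itgam* (chr7:128062640-128118491, plus strand) were not called with any CKI by limma, with 3 and 2 of 58 at an unadjusted p under 0.05. *Adgre1* was 5747 at the lowest, 6956 at the median and 10541 at the highest DMSO sample, and its group means ran from 5448 with NMS1286937 (6450, 4831 and 5064; Log2FC -0.42, SE 0.24, adjusted p = 0.781) to 10508 with Lapatinib (11263, 10345 and 9917; Log2FC 0.54, SE 0.24, adjusted p = 0.0859). *Itgam* was 2432, 3744 and 4869 in DMSO, and ran in group means of log2 values from Afatinib (3576, 2173 and 3210) to BGT226 (5686, 5505 and 3864). Every group of both genes overlapped DMSO. *Adgre1* with Lapatinib was called without replicate 1 (Log2FC 0.68, adjusted p = 0.035), and with the mitochondrial share as a covariate its Log2FC was 0.068 (adjusted p = 0.867; Log2FC 0.068 to 0.68 and adjusted p 0.014 to 0.867 over 18 settings). *Itgam* with Afatinib (Log2FC -0.33, SE 0.19, adjusted p = 0.194) was called without replicate 3 (Log2FC -0.58, adjusted p = 0.00968) and was close to DMSO without replicate 2 (Log2FC -0.079, adjusted p = 0.943; Log2FC -0.58 to -0.079 and adjusted p 0.00968 to 0.943 over 18 settings). The Log2FC of *Itgam* with BGT226 (Log2FC 0.43, SE 0.19, adjusted p = 0.0698) was 0.23 after the samples were scaled again (adjusted p = 0.36; Log2FC 0.23 to 0.47 and adjusted p 0.00826 to 0.36 over 18 settings). Of 10 other integrin chains, all tested, 5 passed the F test, beside 48.6% of all tested genes. Of 580 combinations 8 were called higher and 11 lower, beside 2.52% and 1.65% over all tested genes, or 4 higher and 15 lower after the samples were scaled again. Afatinib accounted for 6 of the lower calls, and with it 12.8% of all tested genes were called lower. *Itgb1*, the integrin β1 chain, fell with it from 2182 ± 471 in DMSO to 1295 ± 145 (Log2FC -0.73, SE 0.13, adjusted p = 1.18e-05; 3 of 3 samples below all DMSO samples). *Itgb1* was called lower with 4 CKIs in all, and its lowest group was AZD2014 at 1178 ± 137 (Log2FC -0.87, SE 0.13, adjusted p = 5.8e-08; 3 of 3 samples below). *Itgav*, the αV chain, fell with Afatinib from 1154 ± 387 to 694 ± 304 (Log2FC -0.73, SE 0.21, adjusted p = 0.00856; 1 of 3 samples below). *Itgax*, the CD11c chain with the widest range of the list, did not pass the F test (adjusted p = 0.153). *Adgre1* overlaps a predicted gene on the opposite strand, so its value may hold reads of both.

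*Lyz2* (chr10:117277541-117282272, minus strand), the most abundant of the 9, was also the most variable between samples of one group. It was 44126 at the lowest, 52826 at the median and 131174 at the highest DMSO sample, and its group means ran from 50603 with NMS1286937 (63071, 44134 and 44604) to 124225 with Lapatinib (143185, 118725 and 110764). All groups overlapped DMSO, limma called 0 CKIs and 4 of 58 had an unadjusted p under 0.05. With the replicate number as a block, limma called 6 CKIs higher, and the F test adjusted p of *Lyz2* was 0.00614 in place of 0.917. That block raised the share of all tested genes past the F test from 48.6% to 78.7%. The numbers were not taken to pair the samples, and the calls added for other genes are given with the settings below. *Lyz2* with Lapatinib (Log2FC 0.96, SE 0.40, adjusted p = 0.0663) was called without replicate 1 (Log2FC 1.20, adjusted p = 0.0152), and with the mitochondrial share as a covariate its Log2FC was 0.14 (adjusted p = 0.815; Log2FC 0.14 to 1.20 and adjusted p 0.00406 to 0.815 over 18 settings). With NMS1286937 (Log2FC -0.35, SE 0.40, adjusted p = 0.94) its Log2FC was -0.17 without replicate 1 and -0.19 with that covariate, neither called (Log2FC -0.45 to -0.17 and adjusted p 0.68 to 1 over 18 settings). The spread within groups was 0.58 on the log2 scale, and the SD of the 59 group means was 0.29. Means vary less than single samples, so the size of one beside the other decides nothing. In 54 of the 60 sets of 3 samples (58 CKIs and both DMSO sets) the sample numbered 1 was the highest. The same held in 55 sets for *Maf*, 48 for *Adgre1* and 43 for *Itgam*, whereas *Spi1* was highest in the sample numbered 1 in only 4. Mean *Lyz2* was 111216, 70292 and 64546 over the samples numbered 1, 2 and 3. *Lyz1*, a close paralog, had a mean of 7296, and reads of the pair may have been split.

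The share of mitochondrial transcripts moved with these levels. It was 0.520% to 4.47% over the CKI samples and 0.760% to 1.94% over the DMSO samples, and over the 59 group means it correlated with *Lyz2* (r = 0.85), *Adgre1* (r = 0.78) and *Maf* (r = 0.69), and less closely with *Cebpa* (r = 0.46), *Itgam* (r = 0.41) and, in the opposite direction, *Spi1* (r = -0.41). The r was 0.07 for *Csf1r*, -0.13 for *Mertk* and 0.13 for *Cebpb*. A fit with this share as a covariate, chosen after the values were seen, gave 5 calls higher and 10 lower for the 9 genes, beside 1.45% and 1.49% of all combinations. All 10 calls of the fit without it passed the threshold there too, with adjusted p for *Spi1* of 7.30e-05 with AZD2014, 0.00196 with Afatinib, 0.0265 with BGT226 and 0.042 with Omipalisib. The calls it added were *Maf* lower with BGT226 (adjusted p = 0.00726) and Omipalisib (0.0128), *Cebpb* higher with Midostaurin (0.0448), *Spi1* lower with BMS911543 (0.00617) and *Mertk* lower with Midostaurin (0.0457). In it 4 of the 9 genes passed the F test, beside 43.9% of all tested genes, and the F test adjusted p was 0.994 for *Lyz2*, 0.557 for *Adgre1*, 0.545 for *Maf*, 0.194 for *Cebpa* and 0.327 for *Itgam*. Within groups, *Adgre1* and *Lyz2* varied together (r = 0.92 over 180 samples after subtraction of group means) and *Spi1* opposite to *Lyz2* (r = -0.73). The difference between sample numbers given above was not subtracted and remains in both correlations. Of the macrophage surface and lysosome markers, 28 of 30 were tested and 4 passed the F test, beside 48.6% of all tested genes, with 39 of 1624 combinations called higher and 5 lower, beside 2.52% and 1.65% over all tested genes. After the samples were scaled again by the median of ratios these counts were 19 higher and 11 lower. Those with the widest ranges, *C1qc*, *Fcgr3* and *Cd68*, had F test adjusted p of 0.239, 0.17 and 0.0997.

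Of the lists of other cell types, 5 of 9 tested neutrophil markers passed the F test, beside 48.6% of all tested genes (12 combinations higher and 8 lower; 9 higher and 9 lower after the samples were scaled again), as did both tested dendritic cell markers (6 and 3; 6 higher and 5 lower). The same held for 2 of 4 stromal and endothelial, 1 of 1 mast cell and 2 of 3 osteoclast markers (3 and 2; 3 higher and 3 lower), with 2 combinations higher and 3 lower of 232 for the stromal and endothelial markers and 2 higher of 58 for the mast cell marker, *Kit*, while the 1 tested B cell marker, *Cd79b*, did not pass (adjusted p = 0.398) and no T, NK or erythroid marker was tested. The neutrophil counts were out of 522 combinations, the dendritic cell counts out of 116 and the osteoclast counts out of 174, and over all tested genes 2.52% of combinations were called higher and 1.65% lower. *Elane*, *Mpo* and *Prtn3*, which encode proteins of neutrophil granules, were lowest with Omipalisib, where *Mertk* was highest. *Elane* went from 21 ± 8.37 in DMSO to 0.667 ± 0.577 (Log2FC -3.69, SE 0.39, adjusted p = 2.02e-14; 3 of 3 samples below all DMSO samples). *Mpo* went from 14.3 to 2.33 and *Prtn3* from 9 to 1.67, so all these levels were low. With Omipalisib limma called 3 of the 9 tested neutrophil markers lower, these same genes, and 0 higher. Of the markers not called, *Camp* (Log2FC 0.39) and *Cxcr2* (0.30) had a positive Log2FC with Omipalisib. *Ltf* (-0.57), *S100a8* (-0.555), *S100a9* (-0.50) and *Ngp* (-0.31) had a negative one. With BGT226, the other CKI with a rise of *Mertk*, 3 of 9 neutrophil markers were called lower as well, among them *Elane* (Log2FC -1.86, SE 0.39, adjusted p = 4.62e-05; 3 of 3 samples below). Markers of other cells were called higher with the same CKIs. Both tested dendritic cell markers, *Xcr1* and *Ccr7*, were higher with Omipalisib, at a median Log2FC of 1.22, and *Ccr7* with BGT226 (Log2FC 1.37, SE 0.35, adjusted p = 0.00119; 3 of 3 samples above all DMSO samples). The other listed dendritic cell markers were too low to be tested, and none had a higher mean with Omipalisib than in DMSO. *Flt3* was 4 ± 1 with Omipalisib beside 8.17 ± 6.49 in DMSO, and *Siglech* 0.667 ± 0.577 beside 3 ± 2.28. *Kit*, of the mast cell list, was higher with Omipalisib (Log2FC 1.23, SE 0.39, adjusted p = 0.0115) and BGT226 (Log2FC 1.77, SE 0.39, adjusted p = 1.20e-04), in 3 of 3 samples above DMSO with each. *Acp5*, of the osteoclast list, had a Log2FC of 1.71 and 1.76 and *Kdr*, of the endothelial list, one of 1.39 and 1.57 with Omipalisib and BGT226, all called, whereas *Pdgfrb* of the stromal list and *Ocstamp* of the osteoclast list were called lower with BGT226 (Log2FC -1.69 and -0.94). Over all tested genes 17.5% were higher and 8.16% lower with Omipalisib and 24.1% and 6.32% with BGT226. The part of these markers in the levels of *Mertk* was not tested.

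**Figure D3:**
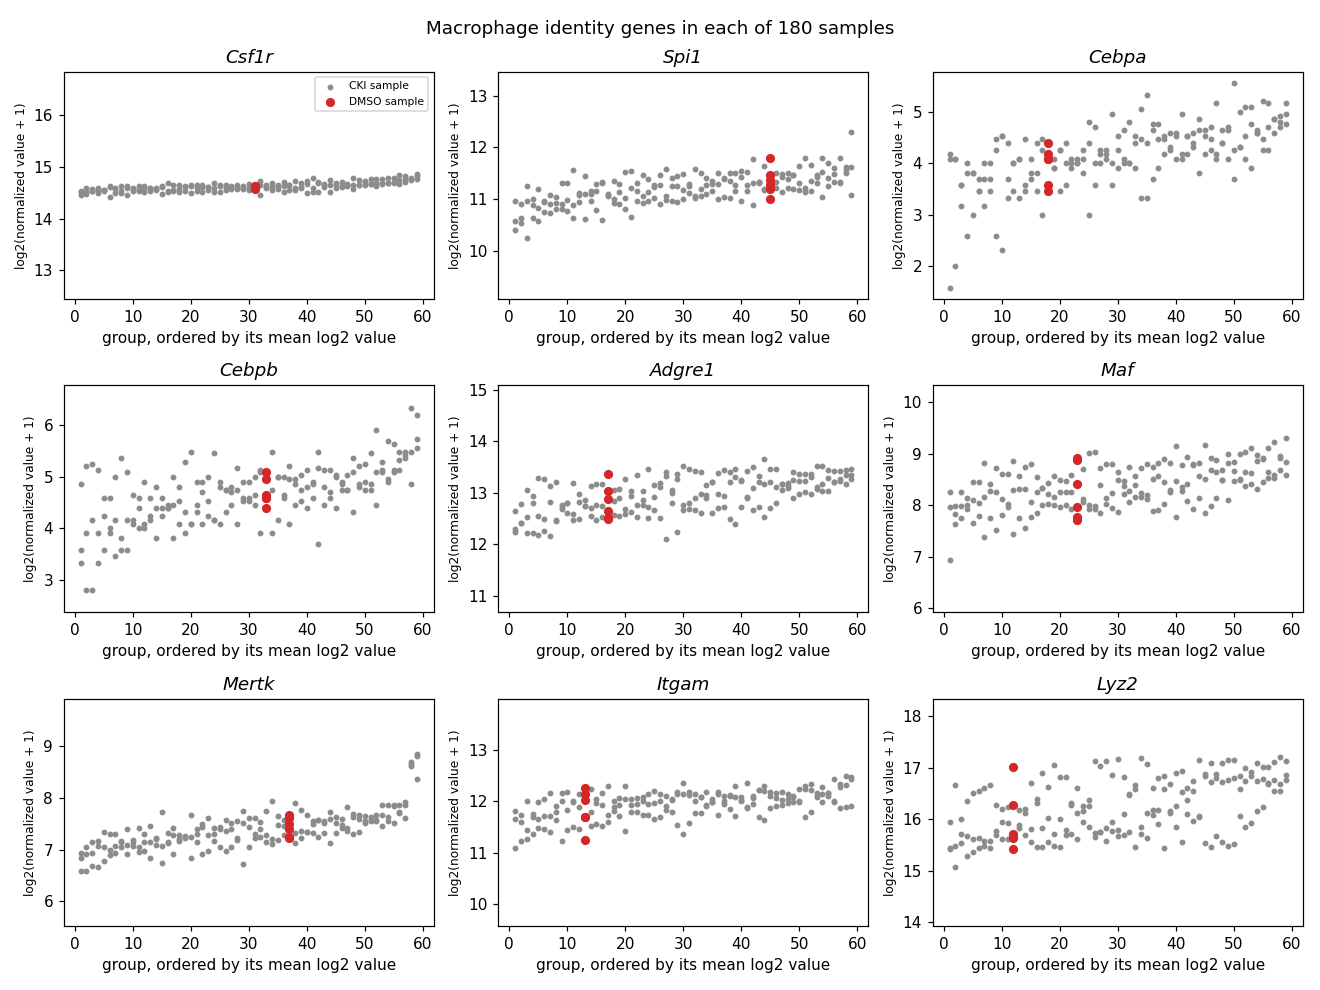
Log2(normalized value + 1) of each gene in all 180 samples, with the 59 groups in rising order of their mean and the same height of log2 units in every panel (DMSO samples red, CKI samples grey). *Csf1r* forms a narrow band, *Mertk* has 2 groups apart at the upper end, and the samples of one group of *Lyz2* spread widely.

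The genes most alike in pattern, by Pearson correlation of the 59 group means of log2 values and described without a test, were for the receptors *Irak2* (r = 0.74), *Dapp1* (r = 0.71), *Qars* (r = 0.69) for *Csf1r* and *Nbr1* (r = 0.84), *Sgsh* (r = 0.83), *Stk11ip* (r = 0.82) for *Mertk*. For the transcription factors they were *Vasp* (r = 0.84), *Pgls* (r = 0.82), *Csnk1a1* (r = 0.81) for *Spi1*, *Klhl6* (r = 0.71), *Fblim1* (r = 0.71), *2310022A10Rik* (r = 0.70) for *Cebpa*, *Pde4b* (r = 0.63), *Bet1l* (r = 0.59), *Stk17b* (r = 0.59) for *Cebpb* and *Purb* (r = 0.88), *Chmp3* (r = 0.85), *B4galt6* (r = 0.83) for *Maf*. For the surface genes and lysozyme they were *Atp6ap1* (r = 0.94), *Tcn2* (r = 0.94), *Renbp* (r = 0.94) for *Adgre1*, *Nckap1l* (r = 0.88), *Chm* (r = 0.84), *Zmpste24* (r = 0.82) for *Itgam* and *Dazap2* (r = 0.96), *G6pdx* (r = 0.96), *Prr13* (r = 0.96) for *Lyz2*. Among the 9 genes themselves the closest pair was *Adgre1* and *Lyz2* (r = 0.85). The 59 means share the scaling of the samples. *Lyz2* did not pass the F test (adjusted p = 0.917), nor did *Dazap2*, *G6pdx* and *Prr13* (0.191, 0.0796 and 0.24). *Adgre1* (0.319) and *Tcn2* (0.662) did not pass it either. Where a gene did not pass, its r is not read as a change with CKIs that both genes share.

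Promoter sequences of RefSeq (GRCm38.p6), from 250 bases before to 50 after the gene start, were matched for 5 of the 9 genes, and 2 are shown: *Mertk*, because it had the largest called changes, and *Itgam*, because its sequence holds a motif of the factor encoded by *Spi1*. The motifs, chosen after the values were seen and searched on both strands, were GAGGAA for PU.1, GTAAACA for FOXO factors and CACGTG, the E-box, which are found in 28.3%, 3.65% and 7.15% of 32851 promoters of this length. Capitals mark matches. The *Mertk* promoter (chr2:128698665-128698964, plus strand) held none of them, which says only that these letters are not in this window, and the *Itgam* promoter (chr7:128062390-128062689, plus strand) held GAGGAA 3 times. The promoters of *Cebpa*, *Cebpb* and *Lyz2* held none of the motifs, so 1 of the 5 matched promoters held any. A match is a description and not a binding site.
Mertk: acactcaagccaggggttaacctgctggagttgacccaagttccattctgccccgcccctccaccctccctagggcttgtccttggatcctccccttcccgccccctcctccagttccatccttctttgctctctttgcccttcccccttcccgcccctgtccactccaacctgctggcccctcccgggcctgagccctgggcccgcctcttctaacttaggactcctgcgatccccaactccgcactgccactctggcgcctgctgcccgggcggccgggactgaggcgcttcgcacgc
Itgam: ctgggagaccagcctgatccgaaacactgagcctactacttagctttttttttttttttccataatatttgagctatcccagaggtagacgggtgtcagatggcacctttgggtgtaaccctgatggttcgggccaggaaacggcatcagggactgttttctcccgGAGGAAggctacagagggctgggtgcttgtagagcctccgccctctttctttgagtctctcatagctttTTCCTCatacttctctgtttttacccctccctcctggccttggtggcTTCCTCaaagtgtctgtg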

How the data were processed

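Reads were mapped by the authors to mm10 with TopHat2 (v2.1.1), reads in blacklisted regions were removed with bedtools (v2.29.2), and reads on exons of curated RefSeq genes were counted. The authors scaled each sample on invariant genes and deposited the rounded values, which are a score with no fixed unit, called normalized values here. Because scaled and rounded values are not raw reads, the count test of the study was not run. Labels gave group and number of all 180 samples and the study's methods call the samples of a group biological replicates. The 9 genes and the gene lists were chosen with earlier results of these data known.

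Values were taken as log2(normalized value + 1), so fold changes of low genes are understated. Genes with a mean of at least 10 (12714 of 45070) were tested with limma 3.58.1 (R 4.3.3, variance trend), all 59 groups in one fit, each CKI against the 6 DMSO samples, with Benjamini-Hochberg adjustment over genes within each CKI and a threshold of 0.05; the F test covered the 58 contrasts. The procedure was tested on simulated data with independent samples and no difference between replicate numbers, so that test does not cover such differences. For each gene the text names up to 3 called CKIs per direction by size of Log2FC, or else the groups with the highest and lowest mean, besides OSI930, and the 3 genes most alike in pattern; of each list it names up to 3 genes with the widest range of group means. Other names were chosen after their values were seen. CKIs were grouped by the study's designated targets. Labels do not say which CKI belongs to which DMSO set. Values carry no strand information in the sources used here. Tables and plots were made with Python 3.11.15, pandas 2.3.3 and matplotlib 3.10.9. Alternatives were the pseudocount, the filter, the scaling, the DMSO set, the variance model, the adjustment, the replicate block, the mitochondrial share, an effect size and leaving out replicates; the mitochondrial share without the block was chosen after the values were seen.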

Additional observations from a re-analysis of the deposited data

How the results depend on the processing

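With the replicate number as a block (replicate block) the calls rose from 4 to 22 higher and from 6 to 11 lower, and 9 of 9 genes passed the F test in place of 4. Over all tested genes the block also raised the share of combinations called, from 2.52% to 4.60% higher and from 1.65% to 3.08% lower, and the share past the F test from 48.6% to 78.7%. CKIs called higher went from 0 to 6 for *Lyz2*, 3 for *Adgre1*, 2 for *Itgam*, 2 for *Cebpb*, 1 for *Cebpa* and 2 for *Maf*, and from 2 to 4 for *Csf1r*, while those called lower went from 0 to 1 for *Maf*, from 4 to 7 for *Spi1* and from 2 to 3 for *Mertk*. With the replicate block and the mitochondrial share as a covariate they were 10 higher and 10 lower (over all tested genes 1.94% and 2.26%), and *Mertk* was then not called with Tofacitinib (adjusted p = 0.067, range over 18 settings 0.00532 to 0.336). The numbers were not taken to pair the samples: the deviations of 144 of 174 CKI samples correlated over 0.1 with those of the same-numbered DMSO samples (over all 174 the correlation ran from -0.523 to 0.726), and 126 correlated best with their own number, a hint from the data and not from the design. A pseudocount of 10 gave 7 calls higher, a Log2FC of at least 0.5 in size gave 2, scaling again by the median of ratios gave 10 lower, the mitochondrial share as a covariate without the block, chosen after the values were seen, gave 10 lower, DMSO set 1 alone gave 2 lower, and without the filter 2 genes passed the F test. Leaving out one replicate number at a time, which leaves 2 samples a CKI, gave 2 to 9 higher, 0 to 5 lower (0 without replicate 2) and 1 to 2 genes past the F test. Apart from the fits with the block or the mitochondrial share, the share of all tested genes called or past the F test is not given for these settings. Their counts are therefore not read as results about the 9 genes. The causes of these differences were not tested. Log2FC reversed for *Csf1r* with BGT226 (-0.037) and OSI930 (-0.023) after scaling again, and for *Cebpa* with Selumetinib without replicate 2 (0.07; leaving out each replicate gave -1.115 to that value). The scaling shifted the median Log2FC of all genes by -0.19 with BGT226 and by -0.065 with OSI930, so those reversals are no result about *Csf1r* itself. Of the other values of a named gene and CKI over the alternatives, 331 kept direction and side of the threshold, 33 lost the call and 20 gained one; *Cebpa* and *Cebpb* have no value with a filter of 50. Their mean normalized values were 18.2 and 26.5 and the median SE of their Log2FC 0.38 and 0.37; what depth adds to these was not tested.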
